A study of Mus musculus with 5 samples.

Results

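A set of 10 genes that make, desaturate, elongate and place fatty acids were followed in MG5, a mouse microglial cell line, after exposure to an RXR agonist. The genes were Srebf1, Acaca, Fasn, Scd1, Scd2, Fads1, Fads2, Elovl5, Acsl3 and Lpcat3. They were taken by symbol from a table of 45777 mouse genes, and all 10 of 10 were found and passed the filter on low counts. The cells, labelled WT, were grown partly in medium taken from cultures of A1, an astrocyte-like line. The groups were MG5 cells given 10 µM 6OHA for 6 h (1 library), MG5 cells given 10 µM bexarotene (BEX) for 6 h (3 libraries) and untreated MG5 cells (1 library). Bexarotene is an established agonist of RXR, the retinoid X receptor, 6OHA is the code name of a newly made agonist of the same receptor, and the study set the pair side by side. The series states 3 libraries per group, and the others were not analysed here. The labels give no vehicle and no time for the untreated library, so vehicle or handling and agonist cannot be told apart.

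Cells build palmitate from acetyl-CoA through acetyl-CoA carboxylase, encoded by Acaca, and fatty acid synthase, encoded by Fasn. Stearoyl-CoA desaturases (Scd1, Scd2) then introduce a double bond into saturated acyl chains, whereas Fads1, Fads2 and Elovl5 turn dietary polyunsaturated precursors into long-chain forms such as arachidonate. Acsl3 activates fatty acids to acyl-CoA, and Lpcat3 places polyunsaturated chains into membrane phospholipids. RXR pairs with the liver X receptors (LXR), and that pair is known to act on Srebf1, Fasn, Scd1 and Lpcat3. The product of Srebf1, SREBP1, is in turn a transcription factor for most of these enzymes. In macrophages and microglia the pathway is known for supplying membrane lipids and for shaping inflammatory responses.

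The libraries held 33823181 to 40545305 counts, and each of the 10 genes had between 1442 and 43268 counts in every library. The median tested gene had a mean of 649 counts, so the 10 genes were among the better counted. All 11 microglia and macrophage markers checked were tested, with summed levels of 5969 TPM in the 6OHA library, 5806 to 5944 TPM in BEX libraries and 6100 TPM in the untreated library. Of 5 adipocyte markers, 4 had 0 counts everywhere (Plin1, Cidec, Lep, Retn) and Adipoq stayed at or under 0.103 TPM. Astrocyte markers (Aqp4 at 0 counts) summed to 9.19 TPM in the 6OHA library, 10.6 to 12.8 TPM in BEX libraries and 15.1 TPM in the untreated library. Neuron markers (Rbfox3 at 0 counts) summed to at most 6.54 TPM in any library. Oligodendrocyte markers (Mog and Olig2 at 0 counts) summed to 47.4 TPM in the 6OHA library, 47.4 to 49.1 TPM in BEX libraries and 41.5 TPM in the untreated library, mostly Mbp. The part of these low levels in the results was not tested. In bulk RNA, a change in the makeup of the cells and a change in RNA per cell cannot be told apart.

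The start regions of the genes were searched for letter patterns known for the receptors and SREBP1. RefSeq (GRCm38.p6) windows of 300 bases, 250 before and 50 after a transcription start, were at hand for 7 of the 10 genes and gave 9 windows, 3 of them for Srebf1. A loose LXR-RXR element, made of GGTNA repeated on the same strand with 5 bases between the copies, was searched on both strands. The pattern had been loosened so that it takes in the LXR element known from the Srebf1 promoter, so the Srebf1 match is no finding. The pattern was present in 3 of the 9 windows, including that Srebf1 window, and in 0.718% of all 32851 windows of that length. It was fitted to a listed gene, and 3 of the 9 windows are of Srebf1, so these shares cannot be compared. The 3 matches are given here in the orientation of the element, with the repeats in capitals. They are shown as the matches found, and the windows of Acaca, Lpcat3, Elovl5 and Fads2 and the other 2 windows of Srebf1 held none. The Acaca window, chr11:84195188-84195487, lies inside the gene, whose span begins at 84129635. The region at that outer start of Acaca was not searched. On the minus strand, the spans of Fasn and Srebf1 begin at 120825166 and 60224186. Their windows lie inside those spans, so the regions at these outer starts were not searched either.

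Srebf1: GGTTActggcGGTCA
Fasn: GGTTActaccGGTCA
Acsl3: GGTTActatgGGTCA

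The Srebf1 match lies in the window chr11:60210422-60210721 on the minus strand, with its first base at -182 from a start, in the window furthest along the gene. The Fasn match lies in the window chr11:120824498-120824797 on the minus strand, with its first base at -225, and the Acsl3 match in chr1:78657575-78657874 on the plus strand, with its first base at -112. The 3 windows are printed whole, 5′ to 3′ on the strand of the gene, with the match, which reads in the opposite orientation there, in capitals.

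Srebf1: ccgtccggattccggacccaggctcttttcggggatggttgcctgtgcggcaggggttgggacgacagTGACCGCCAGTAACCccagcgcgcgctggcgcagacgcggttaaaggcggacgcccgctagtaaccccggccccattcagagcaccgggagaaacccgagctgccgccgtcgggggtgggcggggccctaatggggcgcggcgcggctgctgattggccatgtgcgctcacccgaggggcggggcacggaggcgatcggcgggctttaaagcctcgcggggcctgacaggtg
Fasn: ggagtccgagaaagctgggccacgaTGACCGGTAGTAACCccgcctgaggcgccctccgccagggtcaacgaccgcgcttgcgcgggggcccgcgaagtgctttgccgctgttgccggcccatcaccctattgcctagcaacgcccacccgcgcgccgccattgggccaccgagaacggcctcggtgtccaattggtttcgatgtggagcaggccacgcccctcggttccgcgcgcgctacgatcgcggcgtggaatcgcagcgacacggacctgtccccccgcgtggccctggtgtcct
Acsl3: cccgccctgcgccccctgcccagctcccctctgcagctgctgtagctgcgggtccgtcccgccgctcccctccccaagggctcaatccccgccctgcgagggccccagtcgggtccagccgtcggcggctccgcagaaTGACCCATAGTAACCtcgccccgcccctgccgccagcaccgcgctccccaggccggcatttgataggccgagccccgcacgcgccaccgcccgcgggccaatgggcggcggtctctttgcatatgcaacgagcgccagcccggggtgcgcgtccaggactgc

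The tighter repeat bound by RXR pairs, GGTNA with 2 bases between the copies, was in 0 of the 9 windows and in 1.1% of all windows. An SREBP site spelled TCACNCCAC was in 0 of the 9 windows and in 1.24% of all windows, which says only that these letters were not in these windows. The CCAAT box of NF-Y was in 6 of the 9 windows and in 37.4% of all, with 4 copies in the Lpcat3 window and 3 in the Fasn window. The Sp1 site GGGCGG was in 5 of the 9 windows and in 35.7% of all, with 6 copies in the Lpcat3 window and 5 in the Acsl3 window. In the Acsl3 window a CCAAT and a GGGCGG stand next to each other, and in the Fasn window 2 CCAAT boxes on opposite strands overlap. A match is a description of letters, not evidence of binding.

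Levels that correct for gene length (TPM, deposited) show what these cells make most of. Scd2 was the most abundant of the 10 genes in every library, at 495 TPM in the 6OHA library, 323 ± 11.5 TPM in BEX libraries (SD, n = 3) and 283 TPM in the untreated library. Fasn and Elovl5 followed in that order in every library, at 118 and 106 TPM in untreated cells. Fads1 (80.6 TPM), Srebf1 (72.1 TPM) and Lpcat3 (49.4 TPM) formed the middle of the untreated order. Acsl3 (37.4 TPM), Scd1 (30.3 TPM), Fads2 (28.9 TPM) and Acaca (20.5 TPM) were lowest there. Scd1 and Fads2 stood closer in untreated cells than the SD of Fads2 between BEX libraries (2.26 TPM), so their order is not resolved. Acaca was last in untreated cells. It stood above both Scd1 and Fads2 in the 6OHA library and in BEX replicates 1 and 2, and above Fads2 but below Scd1 in BEX replicate 3. The 10 genes together made up 1262 TPM in the 6OHA library, 938 to 997 TPM in BEX libraries and 827 TPM in the untreated library.

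Tests used counts. The 5 libraries were fitted together with edgeR's quasi-likelihood method over 15462 genes, and a gene was called when its Benjamini-Hochberg adjusted p was under 0.05. The levels beside them are CPM, counts scaled by each library's TMM-adjusted total. Only BEX was replicated, so its 3 libraries supply the spread and the lone 6OHA and untreated libraries are assumed to vary like them. The labels do not say that the BEX libraries came from separate cultures, so the p-values reflect the spread among these samples alone, which may be technical. The 3 comparisons share libraries and are not independent of each other. Fold changes are given on the log2 scale with the standard error (SE) of the fit.

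Of the 10 genes, 7 rose with both agonists: Acaca, Fasn, Scd1, Scd2, Elovl5, Acsl3 and Lpcat3. Across all tested genes 735 (4.75%) were called higher in both comparisons. The same 7 genes were also higher with 6OHA than with BEX, a pattern found in 71 tested genes (0.459%). Srebf1 fell with BEX and was not called with 6OHA, and Fads1 and Fads2 were called in none of the 3 comparisons. With 6OHA against untreated cells, 7 of the 10 were called higher and 0 lower, while 14.8% of all tested genes were called (7.59% higher, 7.19% lower). With BEX against untreated cells, 7 were called higher and 1 lower, while 13.6% of all tested genes were called (7.55% higher, 6.03% lower). The median log2 fold change of the 10 genes was 0.57 with 6OHA and 0.23 with BEX, beside medians of -0.0031 and -0.0014 over all tested genes. The split of calls over all genes depended on the processing. With 6OHA, 51.3% of 2285 calls were higher as fitted, and 61.1% of 1301 once GC content and gene length entered as offsets. For BEX, 55.6% of 2101 calls were higher as fitted and 70.1% of 975 in limma on log2(TPM + 0.1).

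**Figure D1:**
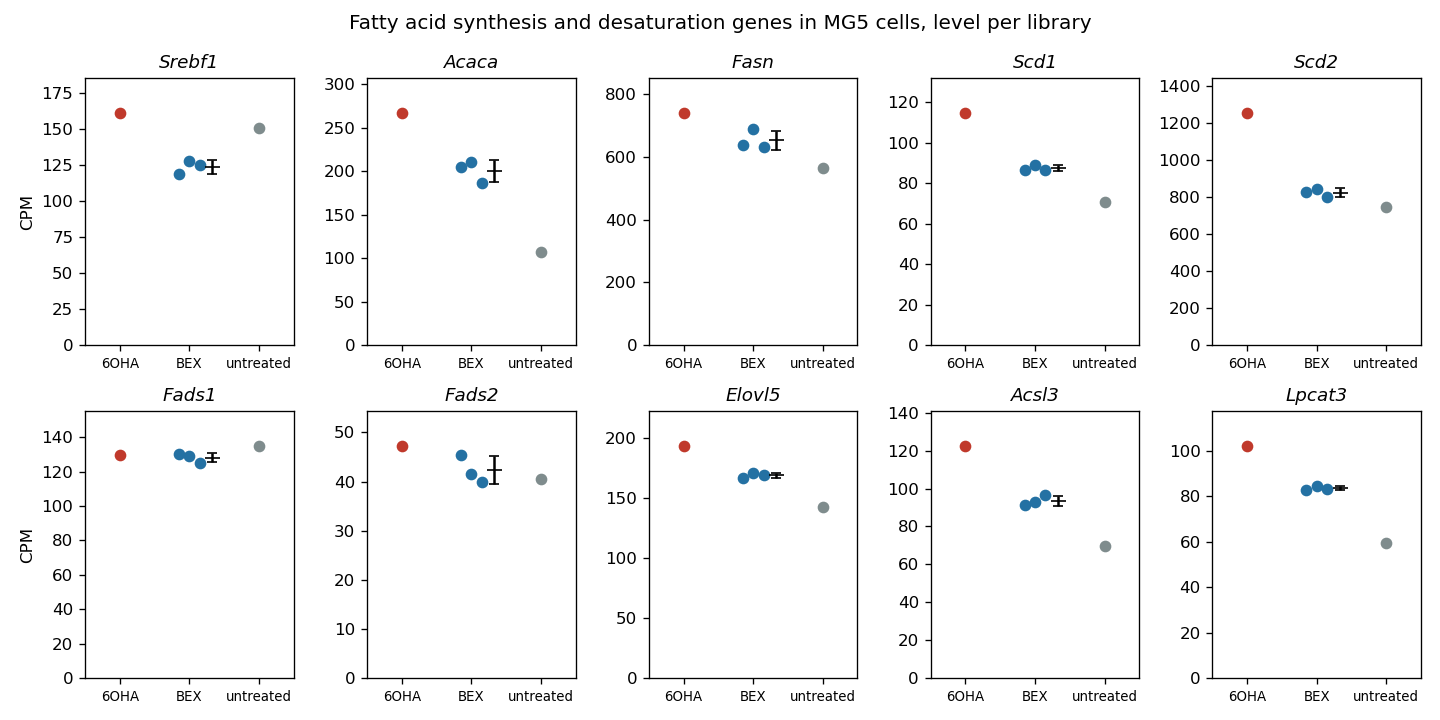
Level of each of the 10 genes (CPM, axes start at 0) in the 6OHA library (red), the 3 BEX libraries (blue, with mean and SD in black) and the untreated library (grey). The 6OHA library stands above all 3 BEX libraries for 9 of the 10 genes, and Fads1 is the exception.

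Acaca, the carboxylase that makes malonyl-CoA, had the largest rise of the 10 with either agonist (gene ID 107476, chromosome 11, 84129635 to 84401651, plus strand). It stood at 267 CPM in the 6OHA library and at 206, 210 and 186 CPM in BEX libraries, against 107 CPM in untreated cells. The 6OHA library lay above all BEX libraries, and all BEX libraries lay above the untreated library. The log2 fold change was 1.32 ± 0.080 with 6OHA (adjusted p = 5.32e-07, edgeR) and 0.91 ± 0.067 with BEX (adjusted p = 1.45e-06). Ranked by p over all tested genes, Acaca came 20th with 6OHA and 103rd with BEX. Acacb, the mitochondrial carboxylase, had 3.10 CPM in the 6OHA library, 3.75 ± 0.187 CPM in BEX libraries (SD, n = 3) and 3.74 CPM in the untreated library and was called in no comparison. The antisense-strand gene Gm11437, which lies within Acaca, had 0 counts in every library.

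Fasn, the synthase downstream of the carboxylase, moved far less (gene ID 14104, chromosome 11, 120805958 to 120825166, minus strand). It had 738 CPM in the 6OHA library and 637, 687 and 632 CPM in BEX libraries, against 565 CPM in untreated cells. No libraries of different groups overlapped, but BEX replicate 2 stood nearest to the 6OHA library. The log2 fold change was 0.39 ± 0.060 with 6OHA (adjusted p = 0.00103) and 0.21 ± 0.049 with BEX (adjusted p = 0.0133). The BEX call was lost in limma on log2(TPM + 1), at an adjusted p = 0.0936, in a range of 0.00123 to 0.0936 over the alternatives. Within a library, Fasn was 2.94 times as abundant as Acaca per length in the 6OHA library and 3.55 ± 0.179 times in BEX libraries (SD, n = 3), against 5.76 times in the untreated library.

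The delta-9 desaturase genes lie 87585 bases apart on chromosome 19, with Scd2 at 44293676 to 44306864 (gene ID 20250, plus strand) and Scd1 at 44394450 to 44407709 (gene ID 20249, minus strand). Scd2 had 1253 CPM in the 6OHA library and 825, 846 and 802 CPM in BEX libraries, against 746 CPM in untreated cells. The 6OHA library stands far above the others, and the BEX libraries stand slightly above the untreated one. Scd2 rose by 0.75 ± 0.049 log2 units with 6OHA (adjusted p = 9.28e-07) and by 0.14 ± 0.040 with BEX (adjusted p = 0.0315). The small BEX rise lost its call when BEX replicate 1 was left out (adjusted p = 0.0734) and with offsets for GC content and length (adjusted p = 0.0979), in a range of 0.00637 to 0.0986 over the alternatives. Scd1 had 115 CPM in the 6OHA library and 86.8, 89.0 and 86.4 CPM in BEX libraries, against 70.7 CPM in untreated cells. The 3 groups did not overlap for Scd1, and the SD between BEX libraries was 1.40 CPM (n = 3). Scd1 rose by 0.70 ± 0.069 with 6OHA (adjusted p = 3.24e-05) and by 0.31 ± 0.058 with BEX (adjusted p = 0.00332).

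Reads from Scd1 and Scd2 can be confused where their sequences coincide. Their coding sequences (GENCODE M21) were 90.3% identical, and 3.03% of all 50-base stretches of the Scd1 transcript were also found in Scd2 (1.01% of 100-base stretches). One coding stretch of 90 bases, from coding base 523 of Scd1 and 532 of Scd2, is the same in both genes, and a read inside it cannot be assigned to either.

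Scd1 and Scd2: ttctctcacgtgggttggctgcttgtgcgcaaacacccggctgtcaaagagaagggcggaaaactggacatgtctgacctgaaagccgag

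The least alike 90 bases, from coding base 76 of Scd1 and 85 of Scd2, differ at 29 positions, shown in capitals.

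Scd1: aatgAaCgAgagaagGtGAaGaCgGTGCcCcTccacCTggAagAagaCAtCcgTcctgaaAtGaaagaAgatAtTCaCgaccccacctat
Scd2: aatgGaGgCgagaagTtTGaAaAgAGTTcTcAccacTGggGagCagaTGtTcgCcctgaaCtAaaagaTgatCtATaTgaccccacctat

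Per length, Scd2 was 9.70 times as abundant as Scd1 in the 6OHA library and 8.44, 8.44 and 8.23 times in BEX libraries, against 9.36 times in the untreated library. The BEX libraries thus gave the lowest ratios. Scd3, another copy that shares 91.5% of coding bases with Scd1, had 37 counts in the 6OHA library and 0, 0 and 27 counts in BEX libraries, against 0 counts in the untreated library, and it was not called. Scd4 had 9 to 20 counts in any library.

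**Figure D2:**
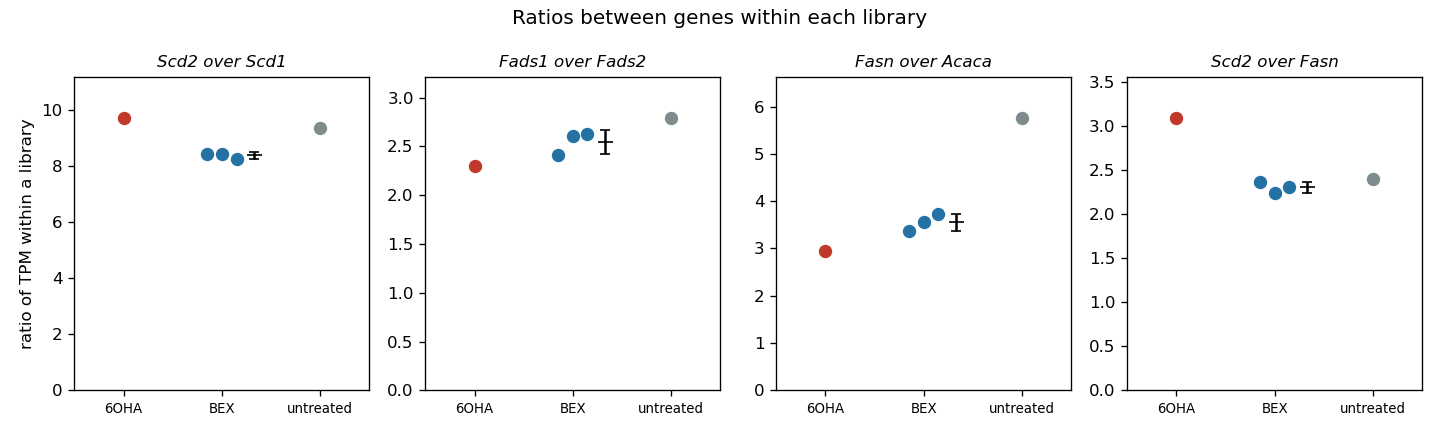
Ratio of TPM between pairs of genes within each library, for 6OHA (red), BEX (blue, with mean and SD in black) and untreated cells (grey), on axes that start at 0. The Fasn to Acaca ratio is lowest in the 6OHA library (2.94) and highest in the untreated library (5.76), while the Scd2 to Fasn ratio is highest in the 6OHA library (3.09).

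The 2 polyunsaturated desaturases did not pass the test in any comparison. Fads1, the delta-5 desaturase (gene ID 76267, chromosome 19, 10182877 to 10196874, plus strand), had 129 CPM in the 6OHA library and 130, 129 and 125 CPM in BEX libraries, against 135 CPM in untreated cells. The 6OHA library lay within the range of the BEX libraries. The 95% interval of its fold change was 0.873 to 1.06 with 6OHA and 0.880 to 1.03 with BEX, so changes beyond those sizes are outside the interval. Fads2, the delta-6 desaturase (gene ID 56473, chromosome 19, 10062765 to 10101503, minus strand), had 47.2 CPM in the 6OHA library and 45.5, 41.6 and 40.0 CPM in BEX libraries, against 40.5 CPM in untreated cells. Here the untreated library lay within the BEX range and the 6OHA library just above it. The log2 fold change of Fads2 was 0.22 ± 0.099 with 6OHA (adjusted p = 0.167) and 0.061 ± 0.082 with BEX (adjusted p = 0.703). With offsets for GC content and length the 6OHA difference was called (0.35, adjusted p = 0.0432), in a range of 0.0432 to 0.302 over the alternatives. Fads1 and Fads2 are neighbours, 81373 bases apart, and share no 50-base stretch of transcript.

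Elovl5, which elongates polyunsaturated acyl chains between the desaturation steps (gene ID 68801, chromosome 9, 77917365 to 77984519, plus strand), did rise. It had 193 CPM in the 6OHA library and 167, 171 and 169 CPM in BEX libraries, against 142 CPM in untreated cells. The groups did not overlap. The log2 fold change was 0.44 ± 0.059 with 6OHA (adjusted p = 0.00038) and 0.25 ± 0.049 with BEX (adjusted p = 0.00426). So of the 3 genes of the polyunsaturated route, the elongase was called with both agonists and the desaturases with neither.

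Acsl3 and Lpcat3, which handle the finished chains, rose with both agonists. Acsl3, an acyl-CoA synthetase of the endoplasmic reticulum and lipid droplets (gene ID 74205, chromosome 1, 78657825 to 78707743, plus strand), had 122 CPM in the 6OHA library and 91.2, 92.7 and 96.6 CPM in BEX libraries, against 69.6 CPM in untreated cells. It rose by 0.81 ± 0.072 log2 units with 6OHA (adjusted p = 1.27e-05) and by 0.43 ± 0.060 with BEX (adjusted p = 0.000381). The groups did not overlap. Utp14b, a gene on the same strand that starts at the same base as Acsl3, had 1547 counts in the 6OHA library and 1075 to 1185 counts in BEX libraries, against 861 counts in untreated cells, and the split of reads between the pair is uncertain. Lpcat3, the phospholipid remodelling enzyme (gene ID 14792, chromosome 6, 124663094 to 124704716, plus strand), had 102 CPM in the 6OHA library and 82.8, 84.5 and 83.5 CPM in BEX libraries, against 59.6 CPM in untreated cells. The coefficient of variation between its BEX libraries was 1.07% in CPM and 4.74% in TPM, and the groups did not overlap. Lpcat3 rose by 0.78 ± 0.071 with 6OHA (adjusted p = 1.64e-05) and by 0.49 ± 0.059 with BEX (adjusted p = 0.00011). The opposite-strand gene Emg1 overlaps its last 347 bases and was called in no comparison.

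Srebf1, the transcription factor gene upstream of these enzymes, was the single one of the 10 genes called lower in any comparison (gene ID 20787, chromosome 11, 60199084 to 60224186, minus strand). It had 161 CPM in the 6OHA library and 118, 128 and 125 CPM in BEX libraries, against 150 CPM in untreated cells. All BEX libraries lay below the untreated library, and the 6OHA library lay above it. Srebf1 fell by 0.28 ± 0.055 log2 units with BEX (log2 fold change -0.28, adjusted p = 0.00399) and was not called with 6OHA (0.097 ± 0.067, adjusted p = 0.389). With offsets for GC content and length the 6OHA difference was 0.31 and was called (adjusted p = 0.0098, in a range of 0.0098 to 0.49 over the alternatives). The BEX fall was not called in limma on log2(TPM + 1) (adjusted p = 0.0786, in a range of 3.83e-05 to 0.0786). The gene table sums all starts of Srebf1, so the SREBP1a and SREBP1c forms are not separated, and mRNA levels say nothing of how much SREBP1 protein was cleaved.

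At the same dose and time, the agonists differed for 8 of the 10 genes, with 8 higher and 0 lower with 6OHA than with BEX, while 6.53% of all tested genes were called (2.4% higher, 4.13% lower). Over all genes the split of these calls was 36.7% higher, and 58.7% higher with offsets for GC content and length, which called 8 of the 10 genes too. The 6OHA library lay above all 3 BEX libraries for 9 of the 10 genes, as it did for 32.4% of all tested genes. Between BEX and untreated cells, all 3 BEX libraries lay above the untreated library for 7 of the 10 genes and below it for 2, beside 33.1% and 34.5% of all tested genes. The median log2 difference of the 10 genes was 0.33, beside -0.004 over all tested genes. A single pair of agonists was compared, so the p-values are adjusted over genes only.

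Scd2 showed the largest difference between the agonists, a log2 difference of 0.60 ± 0.040 (6OHA over BEX, adjusted p = 3.26e-06), or 1.52-fold with a 95% interval of 1.43 to 1.61. It ranked 5th by p among all tested genes in this comparison. Acaca (0.41 ± 0.062, adjusted p = 0.00186), Scd1 (0.39 ± 0.055, adjusted p = 0.00124), Acsl3 (0.39 ± 0.056, adjusted p = 0.00162) and Srebf1 (0.38 ± 0.055, adjusted p = 0.00162) formed a group near 1.3-fold. Lpcat3 followed at 0.29 ± 0.055 (adjusted p = 0.00909). Elovl5 (0.19 ± 0.048, adjusted p = 0.0314) and Fasn (0.18 ± 0.048, adjusted p = 0.0442) were near the threshold. Both lost the call without BEX replicate 1, at an adjusted p = 0.0857 for Elovl5 (range 0.00583 to 0.104) and an adjusted p = 0.11 for Fasn (range 0.000147 to 0.215).

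For Fads1 the agonists differed by 0.015 ± 0.052 (adjusted p = 0.913), with a 95% interval of the ratio from 0.934 to 1.09. For Fads2 the interval ran from 0.990 to 1.26 (adjusted p = 0.292), which leaves room for a difference of the size seen for Fasn. The comparison rests on 1 6OHA library. Limma on deposited TPM called 1 of the 10 genes with log2(TPM + 1) and 2 with log2(TPM + 0.1), with all 10 log2 differences in the same direction as in the count test.

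**Figure D3:**
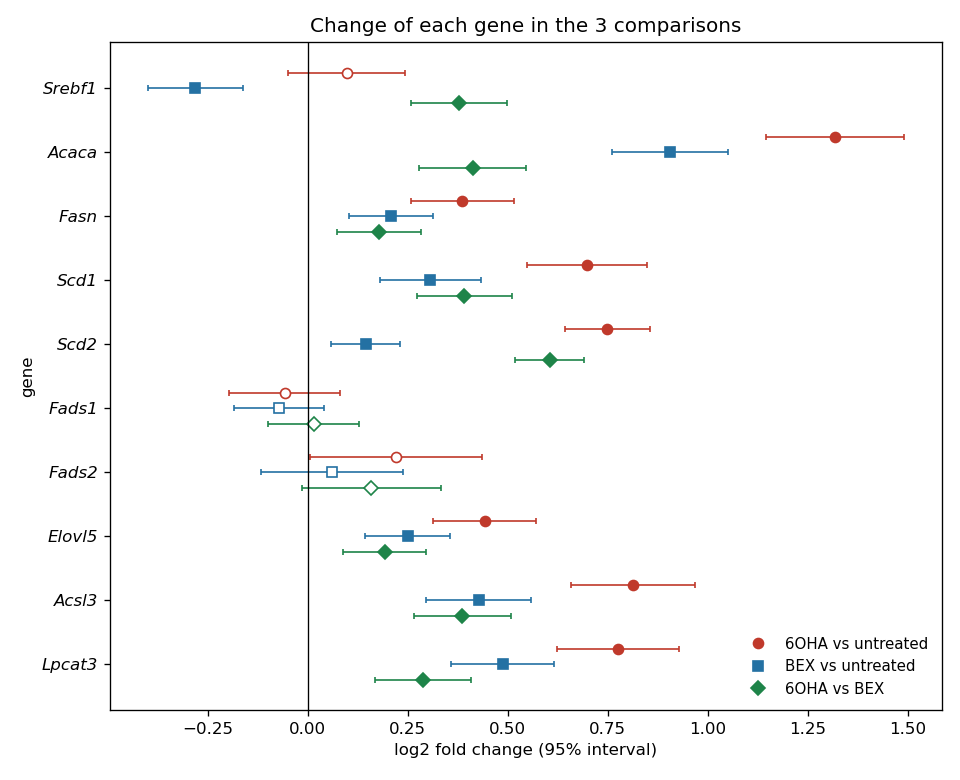
Log2 fold change of each gene with its 95% interval, for 6OHA against untreated (red circles), BEX against untreated (blue squares) and 6OHA against BEX (green diamonds), filled where the adjusted p was under 0.05. Acaca has the largest changes (1.32 with 6OHA), Srebf1 is the gene that is lower with BEX (-0.28), and Fads1 and Fads2 have open symbols throughout.

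The rest of the pathway was described from a list of regulators, enzymes and cofactors of the same steps. Of 69 further listed genes 60 were tested. With 6OHA, 6 were called higher and 7 lower, or 21.7% called beside 14.8% of all tested genes, with a median log2 fold change of 0.039. That split depended on the processing, with 6 higher and 2 lower once GC content and length entered as offsets, 5 and 3 in DESeq2, and 3 and 2 in limma on TPM and with no filter. With BEX, 9 were called higher and 6 lower, or 25% called beside 13.6% of all tested genes, with a median of 0.043. With the same offsets 7 were called higher and 3 lower. Between the agonists 2 of the 60 were called (Acsl4 higher and Nr1h2 lower with 6OHA), which is 3.33% beside 6.53% of all tested genes. This order turned without BEX replicate 3, when 7 listed genes were called, 11.9% beside 7.8% of all, and 6 were called without BEX replicate 2, 10% beside 10.9%. As fitted, a listed gene given below as called with a single agonist, other than Nr1h2, was not called between the agonists.

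Of 6 genes that supply carbon and NADPH, 2 were called higher with 6OHA and 3 with BEX, and the rest were not called. Idh1 and Acly rose with both agonists. Idh1, the cytosolic isocitrate dehydrogenase, had 271 CPM in the 6OHA library and 255, 265 and 253 CPM in BEX libraries, against 138 CPM in untreated cells. It rose by 0.97 ± 0.060 log2 units with 6OHA (adjusted p = 5.43e-07) and by 0.90 ± 0.049 with BEX (adjusted p = 1.15e-07). It was not called between the agonists (0.072 ± 0.047, adjusted p = 0.427). Acly, which cleaves citrate to acetyl-CoA, rose by 0.20 with each agonist (adjusted p = 0.0298 with 6OHA and 0.0109 with BEX). Its 6OHA call was lost in edgeR with no filter (adjusted p = 0.0667, range over alternatives 0.0085 to 0.0667). Acss2, which makes acetyl-CoA from acetate, rose by 0.66 ± 0.180 with BEX (adjusted p = 0.0236, but 0.0534 in DESeq2, range 0.00269 to 0.116) and was not called with 6OHA (0.63 ± 0.213, adjusted p = 0.0669).

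Mid1ip1, whose product promotes assembly of the carboxylase into its active polymer, fell while Acaca rose. It had 139 CPM in the 6OHA library and 150, 163 and 153 CPM in BEX libraries, against 227 CPM in untreated cells. It fell by 0.71 ± 0.068 with 6OHA (log2 fold change -0.71, adjusted p = 2.67e-05) and by 0.54 ± 0.055 with BEX (log2 fold change -0.54, adjusted p = 1.68e-05). Among the genes that control SREBP, Insig1, which retains SREBP in the endoplasmic reticulum, rose by 0.44 ± 0.063 with 6OHA (adjusted p = 0.000598) and by 0.30 ± 0.052 with BEX (adjusted p = 0.00195). Scap, the escort of SREBP, was lower with 6OHA (-0.28 ± 0.081, adjusted p = 0.0354), and Mbtps2, a protease that releases SREBP, was higher (0.29 ± 0.086, adjusted p = 0.0408). With the offsets neither was called, at an adjusted p = 0.792 for Scap (range over alternatives 0.00851 to 0.792) and 0.289 for Mbtps2 (range 0.0108 to 0.289).

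Of the receptors, Nr1h2, which encodes LXR beta, had 37.5 CPM in the 6OHA library and 47.2, 51.6 and 50.5 CPM in BEX libraries, against 57.7 CPM in untreated cells. It fell with 6OHA (-0.62 ± 0.090, adjusted p = 0.000667) and was lower with 6OHA than with BEX (-0.41 ± 0.076, adjusted p = 0.00798). With the offsets neither call of Nr1h2 was made, at an adjusted p = 0.0569 against untreated cells (range 6.25e-07 to 0.0569) and 0.226 against BEX (range 0.000541 to 0.226). Rxrb was called lower with 6OHA (-0.33 ± 0.101, adjusted p = 0.0454), but its log2 fold change with the offsets was 0.0062 (adjusted p = 0.986, range 0.0131 to 0.986). Mlxipl, which encodes the carbohydrate-responsive factor ChREBP, had 6 counts in the 6OHA library and 23, 55 and 29 counts in BEX libraries, against 4 counts in untreated cells, and was called higher with BEX (3.07 ± 1.29, adjusted p = 0.0383). Limma on TPM did not call it (range of adjusted p over alternatives 0.00746 to 0.219).

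The other acyl-CoA synthetases split. Acsl4, which prefers arachidonate, rose with 6OHA (0.48 ± 0.062, adjusted p = 0.000303) and with BEX (0.20 ± 0.051, adjusted p = 0.0191) and was higher with 6OHA than with BEX (0.27 ± 0.050, adjusted p = 0.00709). It was the single gene of the 60 with the pattern of the 7 described above, though its BEX rise was not called with the offsets (adjusted p = 0.232, range 9.56e-05 to 0.232). Acsl1 fell with BEX (-0.26 ± 0.052, adjusted p = 0.005) and was not called with 6OHA (-0.13 ± 0.064, adjusted p = 0.195). Lpcat4, another lysophospholipid acyltransferase, fell with both agonists, by 0.90 ± 0.286 with 6OHA (log2 fold change -0.90, adjusted p = 0.0471) and by 0.74 ± 0.209 with BEX (log2 fold change -0.74, adjusted p = 0.037). Neither Lpcat4 call was made with the offsets, at an adjusted p = 0.261 with 6OHA (range 0.0255 to 0.261) and 0.0733 with BEX (range 0.0125 to 0.277). The BEX call was also lost without BEX replicate 1 (adjusted p = 0.0729).

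In glycerolipid synthesis, Agpat1 and Agpat2, which make phosphatidic acid, fell with both agonists. Agpat1 was lower by 0.32 ± 0.077 with 6OHA (log2 fold change -0.32, adjusted p = 0.0158) and Agpat2 by 0.41 ± 0.101 (log2 fold change -0.41, adjusted p = 0.0159). With BEX they stood at -0.26 ± 0.062 (adjusted p = 0.0141) and -0.27 ± 0.079 (adjusted p = 0.0417). With the offsets none of these 4 calls was made, at an adjusted p = 0.832 for Agpat1 and 0.459 for Agpat2 with 6OHA, and 0.0547 and 0.183 with BEX. Over the alternatives the adjusted p ran from 0.0012 to 0.832 for Agpat1 and from 0.0023 to 0.459 for Agpat2 with 6OHA, and from 0.000979 to 0.136 and 0.0146 to 0.22 with BEX. The Agpat2 call with BEX was also lost without BEX replicate 3 (adjusted p = 0.0757). The other 3 Agpat genes were not called. Lpin1, a phosphatidate phosphatase, was higher with 6OHA (0.73 ± 0.211, adjusted p = 0.0321), and Dgat1, which completes triglycerides, was higher with BEX (0.50 ± 0.112, adjusted p = 0.00806). Lpin1 with BEX (0.53 ± 0.182) and Dgat1 with 6OHA (0.19 ± 0.139) were not called. Between the agonists neither gene was called, at 0.20 ± 0.154 for Lpin1 and -0.31 ± 0.108 for Dgat1 (6OHA over BEX). Lpin1 was not called with the offsets (adjusted p = 0.0566, range 0.0163 to 0.135).

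Of the electron carriers for desaturation, Cyb5a was lower with BEX (-0.30 ± 0.048, adjusted p = 0.000953) and Cyb5r3 higher (0.19 ± 0.051, adjusted p = 0.0283), the Cyb5r3 call being lost without BEX replicate 1 (adjusted p = 0.0644, range 0.00366 to 0.0783). Neither Cyb5a nor Cyb5r3 was called with 6OHA (-0.15 ± 0.059 and 0.12 ± 0.062) or between the agonists. Hacd4, a dehydratase of the elongation cycle, was the single other elongation gene called. It was higher with BEX (0.21 ± 0.046, adjusted p = 0.00954) but not called with the offsets (adjusted p = 0.0633, range 0.00269 to 0.0633). Hacd4 was not called with 6OHA (0.18 ± 0.057) or between the agonists (-0.031 ± 0.046, 6OHA over BEX). Several listed genes were at or near 0 counts and are named here after their values were seen, as are Acacb, Scd3 and Scd4. Thrsp, Elovl2, Elovl3, Acsl6, Mboat2 and Rxrg had 0 counts in every library, which allows up to 3 counts or 0.0743 to 0.0885 CPM for counting error alone. Elovl6, the elongase of palmitate, had 0 counts in the 6OHA library and 0, 3 and 0 counts in BEX libraries, against 3 counts in untreated cells.

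**Figure D4:**
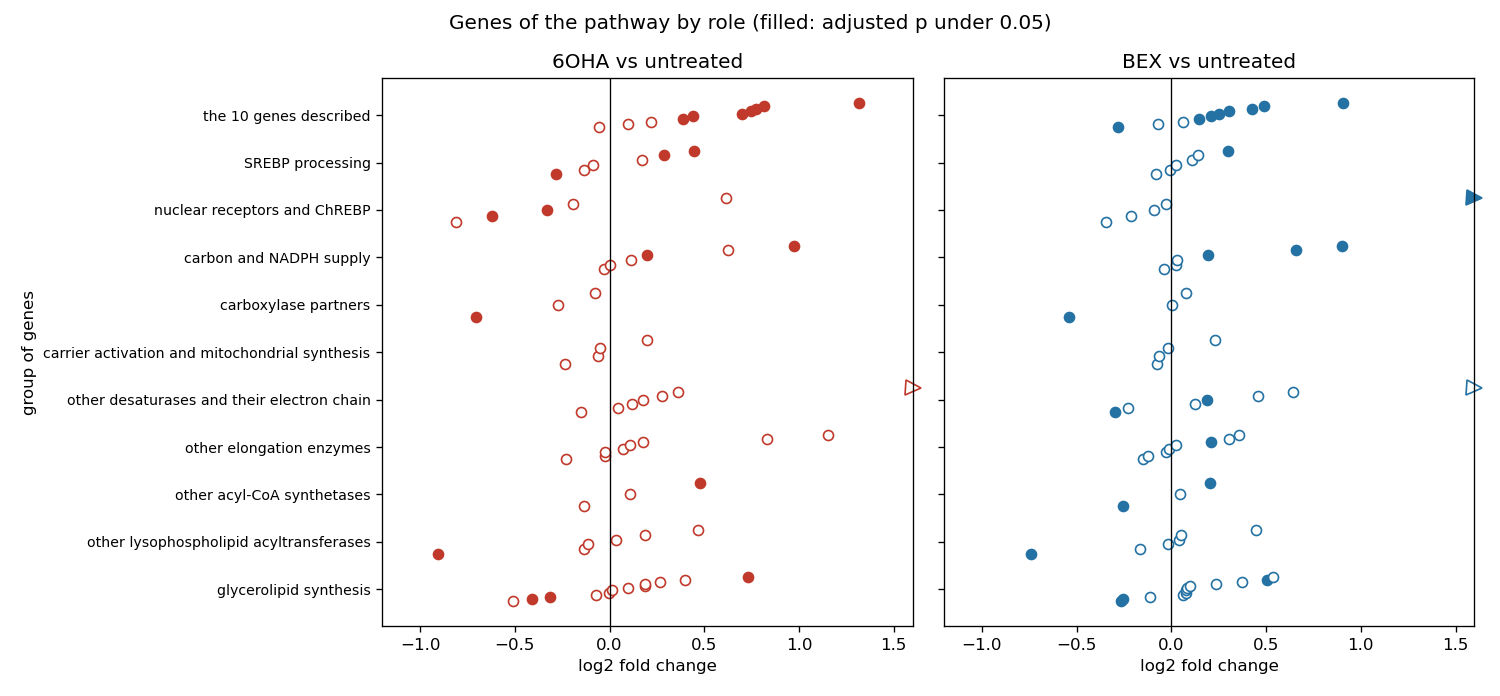
Log2 fold changes against untreated cells with 6OHA (left) and BEX (right) for the 10 genes described and the 60 other tested genes of the pathway, grouped by role, filled where the adjusted p was under 0.05. Triangles at the right edge mark values beyond the axis (Scd3 in both panels, Mlxipl with BEX). In the top row 7 genes are called higher in each panel, and among the 60 others calls lie on both sides of 0.

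The genes outside the 10 whose profile over the 5 libraries was nearest to each responder were found by Euclidean distance in centred log2 CPM. Candidates were tested genes with a mean of at least 10 CPM, without numbered Gm or Rik symbols. The 10 genes themselves were left out, so another of them may lie nearer than the genes named here. Lnpep was nearest to Acaca (distance 0.161), with log2 fold changes of 1.16 with 6OHA and 0.86 with BEX. Rnf145 was nearest to Scd2 (distance 0.101), at 0.64 with 6OHA and 0.11 with BEX. Syk was nearest to Lpcat3 (distance 0.0503), at 0.77 with 6OHA and 0.51 with BEX. Hsph1 was nearest to Acsl3 (0.115), BC005561 to Scd1 (0.0705), Srcap to Fasn (0.0335) and Sh3bgrl2 to Elovl5 (0.017). The next nearest were Kcnj10 and Cd300a for Acaca, Vps13b and Ccdc50 for Fasn, Frk and Noct for Scd1, Fmn1 and Utp14b for Scd2, Usp9x and Rnf128 for Elovl5, Rasal2 and Noct for Acsl3, and Tmem86a and Cd93 for Lpcat3. These likenesses are descriptions over 5 libraries in 3 groups.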

How the data were processed

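Poly-A RNA of MG5 cells was sequenced from TruSeq stranded libraries, 1 with 6OHA, 3 with BEX and 1 untreated. The authors' deposited table gives 3 values per gene and library, mapped to mm10 per the labels: a read count, an FPKM and a TPM. Counts were whole numbers and entered every main test; deposited TPM served for levels between genes and in alternative tests, and no result rests on the deposited FPKM. The submitters' processing notes name StringTie 2.1.3b, HISAT2 2.1.0, Trimmomatic 0.38, SAMtools 1.9, bcl2fastq 2.20.0 and Bowtie2. Their roles and the use of strand in counting are not given in the sources used here.

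Genes were kept by filterByExpr (minimum count 10, minimum total 15) and fitted with edgeR 4.0.16 (R 4.3.3; TMM factors, glmQLFit and glmQLFTest, two-sided, Benjamini-Hochberg over 15462 genes). The fit had 2 residual and 10.6 prior degrees of freedom. Standard errors and 95% intervals come from its fitted means and posterior dispersions. The pipeline was tested on simulated data. Intervals and limits cover counting error and the spread between BEX libraries only. Alternatives were RLE factors, DESeq2 1.42.0, limma 3.58.1 (voom, and log2 TPM with pseudocounts of 1 and 0.1), other filters, leaving out each BEX library, fits of only the compared groups, offsets for GC content and length, and, chosen after seeing the data, edgeR's older quasi-likelihood method. GC content and length came from GENCODE M21 for 14262 of the 15462 tested genes. Positions and promoter windows come from RefSeq (GRCm38.p6), the same assembly as mm10.

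The 10 genes, the lists and the tests were chosen with earlier results of these data known. The text names all 10 genes. In each role group of the pathway list, it names up to 2 called genes per direction and comparison with the largest changes. It also names the genes, outside the 10, of nearest profile to the 7 of the 10 genes that were called with both agonists.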

Additional observations from a re-analysis of the deposited data

How the results depend on the processing

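Only BEX was replicated, so every test rests on the spread of 3 libraries, and nothing shows how 6OHA or untreated libraries vary. For the 10 genes, the 7 calls of 6OHA against untreated held in every alternative run, with 9 called under offsets for GC content and length. Limma on log2(TPM + 0.1) and log2(TPM + 1) made fewer calls in the counts that follow, and the cause was not tested. Of 6OHA against BEX these called 2 and 1 of the 10 genes (8 in the count test), 0 and 0 of the pathway list (2), and 144 and 85 of all genes (1010). Of BEX against untreated they called 5 and 5 of the 10 genes (8), 8 and 7 of the list (15), and 975 and 908 of all genes (2101). Of 6OHA against untreated they called 5 and 5 of the list (13) and 869 and 785 of all genes (2285).

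Without the filter on low counts, more genes were tested. The calls were then 4 of the 10 genes, 0 of the list and 190 of all genes for 6OHA against BEX, 5 of the list and 1134 of all genes for 6OHA against untreated, and 8 of the list and 1216 of all genes for BEX against untreated. For 6OHA against untreated, DESeq2 called 8 of the list and gave no adjusted p for Lpcat4 and Lpin1, and the offsets 8 of the list and 1301 of all genes. Leaving out 1 BEX library at a time gave 867 to 1660 called genes for 6OHA against BEX, the highest without BEX replicate 2, and 3 to 7 of the list, with 6 without BEX replicate 2 and 7 without BEX replicate 3. Rxrb, called lower with 6OHA against untreated, stood at a log2 fold change of 0.0062 with the offsets. Fads1, called in no alternative, changed sign: its log2 difference between 6OHA and BEX ran from -0.0060 to 0.025 without 1 BEX library (0.015 with all), and its log2 fold change with 6OHA against untreated was 0.0024 with the offsets (-0.057 without). The fit of only the compared groups could not be run for 6OHA against untreated, with 1 library each. No paired analysis was possible because the groups share fewer than 2 replicate numbers.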
